A study of Mus musculus with 6 samples.

Results

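The hnRNP A family was followed in mouse common myeloid progenitors. On counts scaled to a common library size, every S34F library had more Hnrnpa2b1 RNA than every WT library. On the authors' scale per gene length, given below, the Hnrnpa2b1 levels of the genotypes overlapped. A coding exon of this gene was included at a lower level in every S34F library than in every WT library. The members are the 5 genes Hnrnpa0, Hnrnpa1, Hnrnpa2b1, Hnrnpa3 and Hnrnpab, taken by gene name from the 13932 genes and 151811 splice junctions of the deposited tables, where 4 of them have 55 junctions. The family was selected on the measured gene level and exon inclusion of Hnrnpa2b1 in S34F against WT, so those values are given as a description with no test. The other 4 genes came by name.

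Common myeloid progenitors are bone marrow cells from which the granulocyte, monocyte, erythroid and platelet lineages arise. They were sorted as donor-derived cells without lineage markers that were c-Kit+, Sca-1-, CD34+ and Fcgamma-. The donor marrow carried rtTA, the doxycycline-dependent transactivator, and a U2AF1 transgene that was either wild type (WT) or S34F, so the WT libraries also carried rtTA and an induced transgene. The transplanted mice had more than 6 weeks of engraftment and then 5 days of doxycycline chow, and each of the 3 libraries per genotype was a pool of marrow from 4 to 5 mice. Pools need not have had separate marrow donors, so the p-values measure the spread between these pools. Genotypes were taken from the sample titles, because the genotype entry reads S34F for all 6 samples. The labels give neither the promoter of the transgene nor the age of the mice.

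The hnRNP A and B proteins carry RNA recognition motifs followed by a glycine-rich tail. They coat nascent transcripts, repress exons that they bind, and shuttle between nucleus and cytoplasm. Several of their genes can skip an exon that encodes part of the tail, which gives protein isoforms of different length. U2AF1, the small subunit of U2AF, recognises the AG that ends an intron, and the S34F mutant is known to use acceptors with T just before the AG (intron position -3) less and those with C more.

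Each of the 3 exons of the glycine-rich tail that the family can skip, and the short exon near the start of Hnrnpa2b1, kept the reading frame. The exon of Hnrnpa1 has 159 nt and 53 codons, those of Hnrnpa2b1 120 nt and 40 codons and 36 nt and 12 codons, and that of Hnrnpab 141 nt and 47 codons. Those of Hnrnpa2b1 and Hnrnpab are shown because the splicing results turn on them, from the mm9 genome and on the strand of the gene, with the exon in capitals and 10 intron bases on either side in lower case.
Hnrnpa2b1 120 nt exon: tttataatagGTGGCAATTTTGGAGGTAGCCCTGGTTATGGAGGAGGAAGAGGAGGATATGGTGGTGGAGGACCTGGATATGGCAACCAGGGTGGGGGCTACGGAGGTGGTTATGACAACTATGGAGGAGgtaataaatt
Hnrnpa2b1 36 nt exon: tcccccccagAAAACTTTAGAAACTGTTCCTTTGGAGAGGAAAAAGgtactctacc
Hnrnpab 141 nt exon: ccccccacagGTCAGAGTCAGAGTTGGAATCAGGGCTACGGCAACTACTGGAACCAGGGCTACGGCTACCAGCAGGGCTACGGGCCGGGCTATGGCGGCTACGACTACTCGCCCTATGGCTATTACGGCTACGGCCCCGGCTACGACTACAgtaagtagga

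In mm9, on the minus strand, the longer Hnrnpa2b1 exon lies at chr6:51414427-51414546, the shorter at chr6:51417390-51417425, and the Hnrnpab exon at chr11:51415252-51415392.

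The acceptor of each skipped exon competes with the acceptor of the exon after it. For Hnrnpa2b1 and Hnrnpab, their last 20 intron bases and first 3 exon bases are given with position -3 and the AG in capitals.
Hnrnpa2b1 120 nt exon acceptor: aaaggcttattttataaTAGgtg
Hnrnpa2b1 acceptor after the 120 nt exon: gtattccaattcttttaCAGgaa
Hnrnpa2b1 36 nt exon acceptor: gttttttttctccccccCAGaaa
Hnrnpa2b1 acceptor after the 36 nt exon: aatggtatttccctttgCAGaga
Hnrnpab 141 nt exon acceptor: tgccctgctcccccccaCAGgtc
Hnrnpab acceptor after the 141 nt exon: aacgttgttcttattccTAGgtc

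The pairs differ in this base. The longer Hnrnpa2b1 exon has T at -3 against C at the next acceptor, with 9 pyrimidines in 20 bases against 13. Hnrnpab has the opposite order, C then T, and the shorter Hnrnpa2b1 exon has C at both. Over the 27767 acceptors of the junction choices tested, 60.1% had C and 30.5% T at this position.

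The libraries held 46827909 to 51862032 gene counts in S34F and 54727541 to 94562984 in WT, so depth differed with genotype. Xist, the RNA of the inactive X chromosome, was at 1 count in S34F replicate 1, 5 in WT replicate 1 and at least 67264 in each other library. Replicate 1 of each genotype thus differed from the rest in the sex of the sequenced cells, and results are given without both of these libraries where a call changed. All 6 progenitor markers (Kit, Cd34, Mpo, Cebpa, Myb, Flt3) were expressed, with summed levels of 6685 to 8266 CPM (counts scaled to a common library size) in S34F and 5417 to 8972 in WT. Of 7 genes gated against, 6 were measured, with sums of 44.3 to 69.6 against 58.6 to 94.4 CPM.

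Hnrnpa2b1 encodes hnRNP A2 and B1, which bind and sort RNAs and repress exons. It had 38956, 26199 and 32113 counts in S34F and 27307, 22950 and 30930 in WT, or 746, 565 and 636 against 495, 323 and 329 CPM. In CPM every S34F library was above every WT library, and WT replicate 1 was the nearest to S34F. The means were 649 ± 90.9 and 382 ± 97.6 CPM (SD, n = 3), a log2 fold change of 0.76 ± 0.19 (SE).

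Hnrnpa3, a close relative of Hnrnpa2b1 that has also been found in RNA transport complexes, had 221, 179 and 202 CPM in S34F and 169, 112 and 124 in WT. Here too the genotypes did not overlap in CPM, while they did in FPKM, as given below. Its log2 fold change was 0.58 ± 0.17 (SE; edgeR adjusted p = 0.538 over 13905 genes), which did not pass the threshold of 0.05. Hnrnpa2b1 and Hnrnpa3 were thus 2 of 5 members without overlap and higher in S34F, where 7.16% of all genes tested had this pattern. The family was chosen with this contrast known, so nothing is read from that count.

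The other members overlapped. Hnrnpab, the CArG-box binding factor A, had 717, 604 and 673 CPM against 653, 386 and 374. WT replicate 1 was inside the S34F range and the other WT libraries below it (log2 fold change 0.50 ± 0.22 SE, edgeR adjusted p = 0.552). Hnrnpa1, the best-studied exon repressor of the family, had 341, 174 and 321 CPM against 271, 108 and 124. Replicate 2 was the lowest library of S34F and of WT, and the S34F value lay below that of WT replicate 1 (log2 fold change 0.74 ± 0.39 SE, edgeR adjusted p = 0.578). Hnrnpa0, known for binding AU-rich elements and in human from the region of chromosome 5q lost in myeloid disease, had 225, 213 and 239 CPM against 239, 179 and 174. It had the smallest fold change of the family, 0.20 ± 0.14 on the log2 scale (SE; edgeR adjusted p = 0.638), with WT replicate 1 within the range of S34F.

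**Figure D1:**
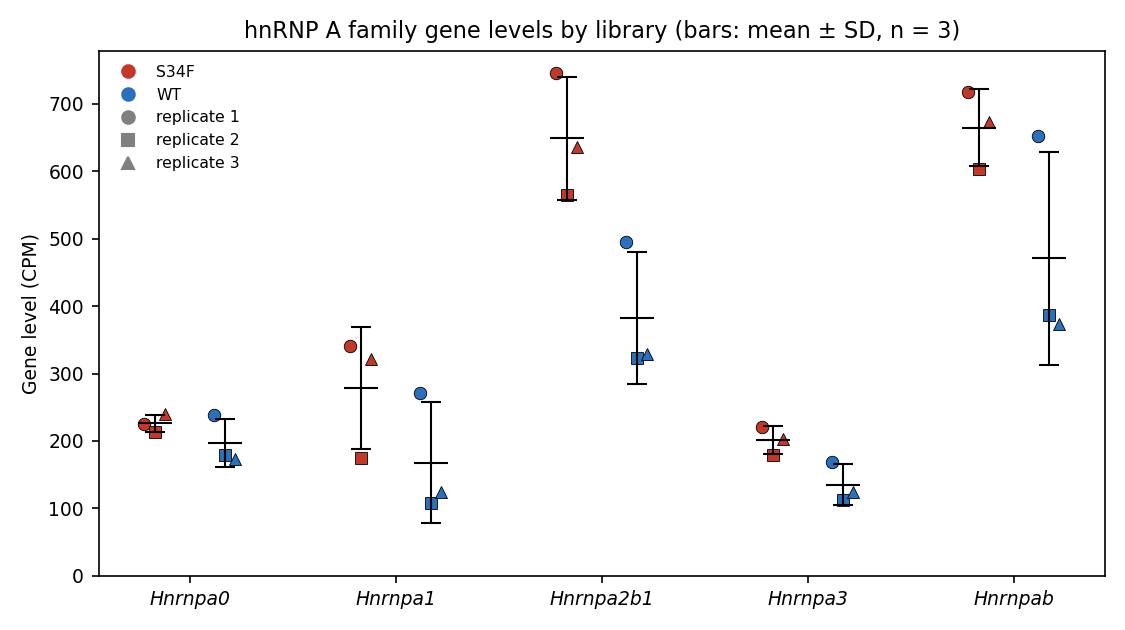
Level of each family gene in CPM (vertical axis, from 0) in every library, S34F in red and WT in blue, with symbols for the replicate and bars for mean ± SD (n = 3). Hnrnpa2b1 and Hnrnpa3 do not overlap between the genotypes, and WT replicate 1 is the highest WT library for all 5 genes.

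All 5 genes had positive log2 fold changes, with a median of 0.58, against a median of -0.0052 over all genes tested, of which 49.1% were positive. The count and the median include Hnrnpa2b1, whose level the family was selected on, so nothing is read from them. At an adjusted p under 0.05, edgeR called 0 of the 13905 genes (0%), with 1265 at an unadjusted p under 0.05, and DESeq2 called 96 (0.69%). The calls of the family turned on WT replicate 1. On the log2 scale it lay above the mean of the other WT libraries by 1.22 for Hnrnpa1, 0.78 for Hnrnpab, 0.60 for Hnrnpa2b1, 0.52 for Hnrnpa3 and 0.44 for Hnrnpa0.

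Without WT replicate 1, edgeR gave an adjusted p of 0.013 for Hnrnpa3, 0.011 for Hnrnpab, 0.038 for Hnrnpa1 and 0.053 for Hnrnpa0, with log2 fold changes of 0.77, 0.81, 1.27 and 0.36. In that fit 6.72% of all genes were called higher in S34F. Without replicate 1 of both genotypes the adjusted p was 0.029 for Hnrnpa3, 0.025 for Hnrnpab, 0.078 for Hnrnpa1 and 0.108 for Hnrnpa0, with 3.66% of genes called higher. Leaving out any other single library left all 4 of these genes above 0.05.

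Markers of other cells moved with the genotype. All 7 dendritic cell markers had negative fold changes, with summed levels of 39.2 to 71.7 CPM in S34F and 168 to 356 in WT and no defining marker at 0. All 6 erythroid markers were also lower on average, with sums of 27.2 to 36.4 against 38.7 to 58.5 CPM. Neutrophil granule genes summed to 1768 to 3830 against 2558 to 2740 CPM and B cell genes to 0.911 to 2.16 against 1.74 to 2.58. Of the NK and T cell genes, which summed to 54.7 to 70.6 against 42.5 to 74.8 CPM, Nkg7 made up most (61.8 ± 8.31 against 48.8 ± 17.1), while Klrk1 was at 1.61 ± 0.411 against 6.69 ± 0.820 with no overlap. The part of these markers in the levels of the family was not tested. In such bulk libraries a different mix of cells and a different amount of RNA per cell cannot be told apart.

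The authors' FPKM, which is per length, put the members with junctions in the same order in both genotypes. In S34F the levels were 158 ± 25.3 FPKM for Hnrnpab, 111 ± 43.6 for Hnrnpa1, 96.0 ± 18.2 for Hnrnpa2b1 and 36.8 ± 6.49 for Hnrnpa3. In WT they were 137 ± 37.8, 78.6 ± 38.3, 62.9 ± 16.3 and 30.3 ± 5.22 (SD, n = 3). In FPKM the genotypes overlapped for each of these genes. Hnrnpa2b1 was at 110, 75.6 and 102 FPKM in S34F and 80.2, 47.7 and 60.8 in WT. Hnrnpa3 was at 42.0, 29.6 and 38.8 FPKM in S34F and 34.3, 24.4 and 32.1 in WT. Hnrnpa1 overlapped with both of its neighbours in this order in both genotypes, while every Hnrnpa3 library was below every Hnrnpa2b1 library. The gene model of Hnrnpa1 holds 3 UTR bases in 1126 nt, so its value per length is uncertain. Hnrnpa0 was set into the order by CPM per kb of exon, at 84.4 ± 4.88 in S34F and 73.6 ± 13.5 in WT, between Hnrnpa2b1 (157 ± 22.0 and 92.7 ± 23.7) and Hnrnpa3 (37.2 ± 3.88 and 25.0 ± 5.62). In WT the ranges of Hnrnpa0 and Hnrnpa2b1 overlapped. On this second scale Hnrnpa1 was above Hnrnpab in S34F (248 ± 80.7 against 221 ± 19.0) and below it in WT (149 ± 79.7 against 157 ± 52.5), with overlap in both.

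Pattern likeness to Hnrnpa2b1 was ranked by Pearson's r of log2(CPM + 1) over the 6 libraries among 9164 genes with a mean of at least 10 CPM. The most alike were Ncl (nucleolin, r = 0.998), Zfp770 (0.998), Cep192 (a centrosome protein, 0.995), Agk (a mitochondrial lipid kinase, 0.994) and Cxcr4 (the receptor of the chemokine CXCL12, 0.993). Ncl was at 973 ± 130 CPM in S34F and 604 ± 119 in WT and Cxcr4 at 98.9 ± 20.5 against 53.3 ± 18.3. Hnrnpa3 ranked 6 (r = 0.992), Hnrnpab 229, Hnrnpa1 647 and Hnrnpa0 1090. All of these points share their libraries, depth and genotype split.

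Reads across constitutive junctions, which held at least 95% of the reads of their donor and of their acceptor, are given next along each gene. Of 27 such junctions in 4 genes, 15 had no overlap with S34F higher, where 7.8% of all constitutive junctions did. These were 6 of 6 in Hnrnpa2b1, 7 of 9 in Hnrnpa3, 2 of 5 in Hnrnpab and 0 of 7 in Hnrnpa1. These reads are part of the gene levels that the family was selected on, so nothing is read from the counts. The log2 ratio of the mean junction CPM lay between 0.68 and 1.23 in Hnrnpa2b1, 0.44 and 0.91 in Hnrnpa3, 0.49 and 0.99 in Hnrnpa1 and 0.41 and 0.67 in Hnrnpab. Hnrnpa0 has no junction in the table. Junctions of a gene share its transcripts and are not independent.

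The profile along the genes was not level. In WT replicates 2 and 3, reads of Hnrnpa1, Hnrnpa2b1 and Hnrnpa3 were further below those of WT replicate 1 in the middle and at the end of the gene than at its start. The balance of the later over the earlier constitutive junctions (difference of mean log2 reads, equal numbers of each) of Hnrnpa2b1 was -0.37, -0.34 and -0.24 in S34F and -0.34, -0.71 and -0.72 in WT. For Hnrnpa1 it was 0.068, -0.093 and 0.24 against 0.18, -0.52 and -0.87. For Hnrnpa3 it was -1.12, -1.16 and -0.86 against -0.91, -1.25 and -1.78. In each gene WT replicates 2 and 3 were lower than every S34F library and WT replicate 1 was within the S34F range. The median over 4899 genes was between -0.0011 and 0.018 in every library. Whether this profile bears on the gene levels was not tested. Hnrnpab had no such order, but its first junction varied most, with 1058, 505 and 1552 reads in S34F and 1789, 687 and 427 in WT.

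**Figure D2:**
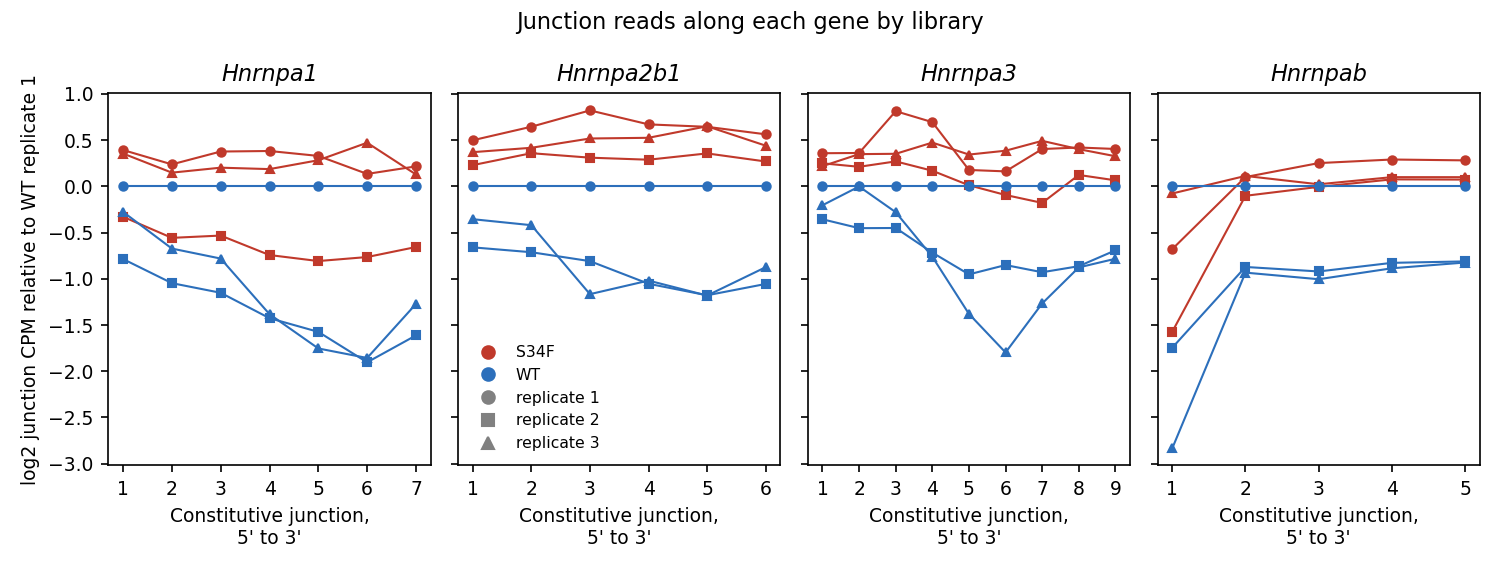
Reads of each constitutive junction (horizontal axis, 5' to 3') as log2 junction CPM relative to WT replicate 1 (vertical axis), by library, with S34F in red and WT in blue. WT replicates 2 and 3 lie lower in the later than in the first junctions of Hnrnpa1, Hnrnpa2b1 and Hnrnpa3, and the first Hnrnpab junction scatters widely.

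The longer coding exon of Hnrnpa2b1, which encodes part of the glycine-rich tail, was included at a lower level in S34F, with no overlap of the libraries. Its inclusion level, from the average of both inclusion junctions against the skipping junction, was 29.8%, 30.7% and 31.5% in S34F and 45.4%, 50.1% and 51.8% in WT. The means were 30.7 ± 0.879% and 49.1 ± 3.35% (SD, n = 3). Total reads of this choice were 2354 to 5111 per library. WT replicate 1, the WT library nearest to S34F in level, was also the nearest in this exon.

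Each end of the exon showed the difference. Its acceptor, with T at -3 as printed above, took 22.2%, 23.9% and 25.8% of the reads of the upstream donor in S34F and 40.0%, 39.4% and 44.7% in WT. Its donor supplied 36.0%, 36.4% and 36.5% of the reads that reach the next acceptor in S34F against 49.8%, 57.5% and 57.3% in WT. The skipping junction itself did not overlap between the genotypes, with 52.9, 41.9 and 48.0 CPM in S34F and 24.0, 11.0 and 9.75 in WT. The junction into the exon overlapped, at 15.1, 13.1 and 16.7 CPM against 16.0, 7.18 and 7.89. The junction out of the exon did not overlap, with S34F higher, at 29.8, 23.97 and 27.5 CPM against 23.80, 14.9 and 13.1.

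The shorter exon of Hnrnpa2b1 distinguishes the B1 from the A2 protein. It was included at 14.1%, 14.5% and 16.5% in S34F and 15.0%, 17.4% and 18.1% in WT, and the genotypes overlapped. Its own and the next acceptor both have C at -3. The means were 15.0 ± 1.31% and 16.8 ± 1.64% (SD, n = 3).

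**Figure D3:**
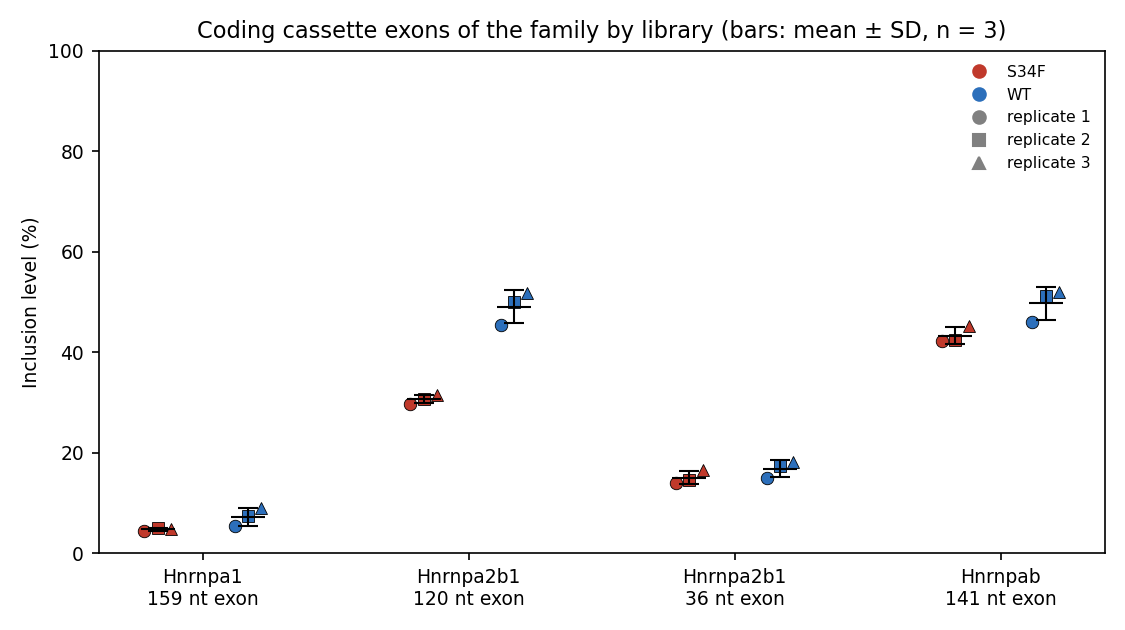
Inclusion level in percent (vertical axis, 0 to 100) of 4 coding exons that the family can skip, by library, with S34F in red, WT in blue and bars for mean ± SD (n = 3). The 120 nt exon of Hnrnpa2b1 is at 29.8 to 31.5% in S34F and 45.4 to 51.8% in WT, the exons of Hnrnpa1 and Hnrnpab are lower in S34F by less, and the 36 nt exon overlaps.

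The S34F libraries combined the higher level of Hnrnpa2b1 with the lower inclusion of its longer exon. Within S34F, the library with the highest level, replicate 1 at 746 CPM, had the lowest inclusion, 29.8%, but replicate 3 at 636 CPM was above replicate 2 at 565 CPM (31.5% against 30.7%). Within WT, replicate 1 at 495 CPM had the lowest inclusion, 45.4%, and replicates 2 and 3 at 323 and 329 CPM had 50.1% and 51.8%. The libraries of the genotypes nearest to each other in level were WT replicate 1 at 495 CPM and S34F replicate 2 at 565 CPM. Their inclusion was 45.4% and 30.7%. Whether the level bears on the inclusion was not tested.

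**Figure D4:**
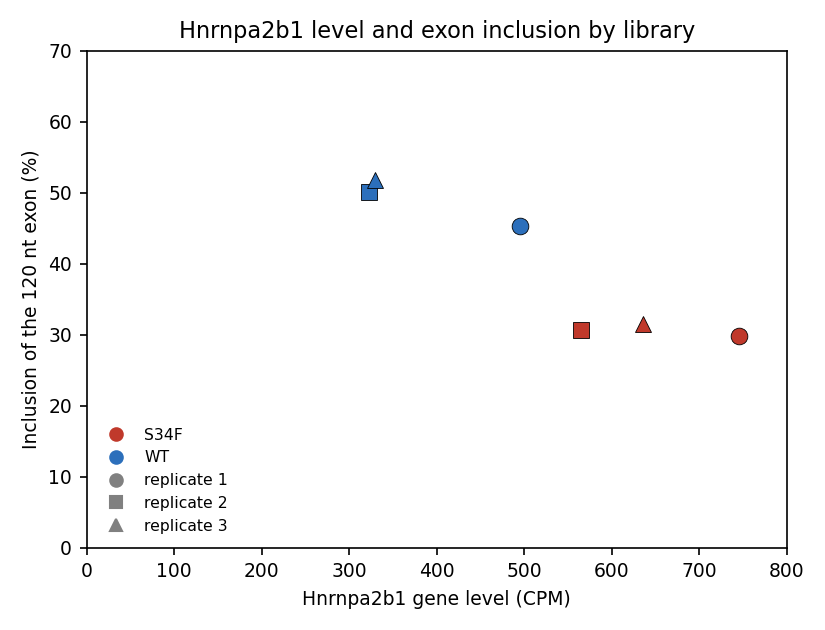
Inclusion of the 120 nt exon of Hnrnpa2b1 in percent (vertical axis) against the level of the gene in CPM (horizontal axis), a point per library, S34F in red and WT in blue. The S34F libraries lie at 565 to 746 CPM and 29.8 to 31.5%, and the WT libraries at 323 to 495 CPM and 45.4 to 51.8%.

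The glycine-rich tail exons of the other members were also lower in S34F in every library, by less and without a call. The Hnrnpa1 exon, which makes the longer A1-B form known in human, was included at 4.47%, 5.02% and 4.77% in S34F and 5.39%, 7.48% and 8.92% in WT. S34F was below WT throughout, with WT replicate 1 close to it (4.75 ± 0.275% against 7.26 ± 1.78%, n = 3; edgeR adjusted p = 0.464). The Hnrnpab exon, which is present in the longer form of CArG-box binding factor A, was at 42.2%, 42.4% and 45.2% against 46.0%, 51.2% and 51.9%. Again WT replicate 1 was the nearest to S34F (43.3 ± 1.69% against 49.7 ± 3.20%, n = 3; edgeR adjusted p = 0.469). This exon has C at its own -3 and T at the next acceptor, the opposite of Hnrnpa2b1, and the difference had the same sign. The Hnrnpa1 exon has T at -3 of its own and of the next acceptor. Whether this base bears on the differences was not tested.

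By the ends of these exons, the acceptor of the Hnrnpa1 exon took 4.07%, 4.60% and 4.21% in S34F against 4.84%, 8.43% and 8.87% in WT (edgeR adjusted p = 0.678), and its donor 4.83%, 5.37% and 5.30% against 5.88%, 6.41% and 8.85% (adjusted p = 0.823 by edgeR). The Hnrnpab acceptor took 43.6%, 44.9% and 47.5% against 47.6%, 53.1% and 55.0% (edgeR adjusted p = 0.762), and its donor 40.6%, 39.7% and 42.7% against 44.4%, 49.2% and 48.3% (adjusted p = 0.802 by edgeR). None of these overlapped, but S34F replicate 3 and WT replicate 1 were nearly equal at the Hnrnpab acceptor (47.53% and 47.60%). The Hnrnpa1 donor share leaves out a junction shifted by 4 bases, described below. That junction had 132 reads in S34F replicate 3, 129 in WT replicate 1 and 0 elsewhere. The lack of overlap of the Hnrnpa1 donor share holds only without those reads.

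Over the whole family, 10 cassette exons had enough reads, of which 9 were lower in S34F without overlap, where 11.8% of all 8595 exons tested were. Of these 9 exons, 7 belong to Hnrnpa2b1, and 6 of those are overlapping forms of its 3' UTR that share reads. Of 13 acceptor choices 8 had no overlap (17% of all), and of 15 donor choices 8 (14.8% of all). The forms of a choice are complementary, so these are counted from both sides. All of these counts include the Hnrnpa2b1 exon that the family was selected on, so nothing is read from them. Leaving out Hnrnpa2b1, whose values get no test, edgeR called 0 of the members' choices at an adjusted p under 0.05. Over all features it called 0 acceptor choices (0%; 2231 at an unadjusted p under 0.05), 3 donor choices (0.00997%) and 0 cassette exons (0%; 877 at an unadjusted p under 0.05). DESeq2 called 368, 233 and 107 (1.24%, 0.774% and 1.24%), with 0 from Hnrnpa1, Hnrnpa3 and Hnrnpab. In the authors' deposited table, which tests each junction within its gene, 0 of 36 junctions of Hnrnpa1, Hnrnpa3 and Hnrnpab had an adjusted p under 0.05, where 512 of 150691 junctions with a value had (0.34%), and the lowest of the 36 was 0.0549.

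In the 3' untranslated region (3' UTR) of Hnrnpa2b1, the exon with the stop codon can be joined to a proximal, a middle or a distal acceptor. Further acceptors at 51412563 and 51412579 had 0 to 17 reads per library from this donor. The acceptor sequences show which base precedes the AG, with position -3 and the AG in capitals as above.
Hnrnpa2b1 proximal 3 prime UTR acceptor: ctttacttctgttgaaaCAGgct
Hnrnpa2b1 middle 3 prime UTR acceptor: tttccctgctggaatttTAGcat
Hnrnpa2b1 distal 3 prime UTR acceptor: ctttttttttcctttggCAGgaa

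The introns run from chr6:51413409 (first intron base) to 51413254, 51412055 and 51411433, with lengths of 156, 1355 and 1977 nt. The distal acceptor has 16 pyrimidines in 20 bases, the proximal 12 and the middle 13. The joining site lies 21 nt after the stop codon in each case, less than the 50 nt of the textbook rule for nonsense-mediated decay, the pathway that degrades transcripts with an exon junction far behind the stop.

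The distal acceptor had a higher share in every S34F library. It took 18.0%, 20.7% and 17.1% of the reads of this donor in S34F and 10.6%, 12.3% and 13.8% in WT, with no overlap (18.6 ± 1.86% against 12.2 ± 1.61%, n = 3). The proximal acceptor took 77.9%, 77.1% and 78.9% against 84.4%, 85.4% and 81.8%, also with no overlap. Of all acceptor choices tested, 17% had no overlap in either direction. The middle acceptor, with T at -3, overlapped at 3.70%, 2.28% and 3.78% against 4.44%, 1.85% and 3.72%. The proximal and the distal acceptor both have C at -3, and their shares differed in opposite directions.

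**Figure D5:**
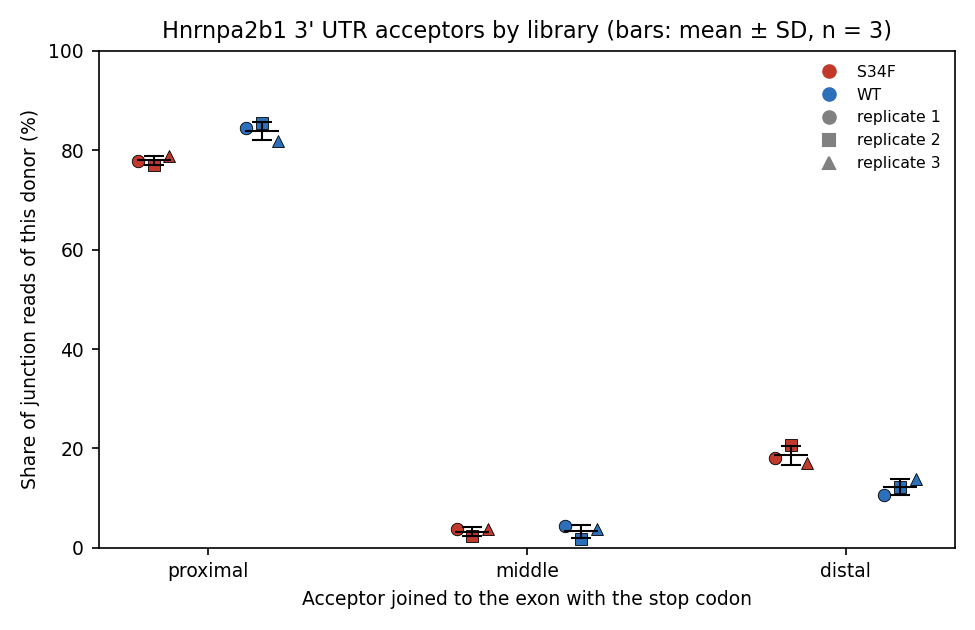
Share of the reads of the Hnrnpa2b1 donor 21 nt after the stop codon (vertical axis, percent) that join the proximal, middle or distal acceptor of the 3' UTR, by library, S34F in red and WT in blue, with bars for mean ± SD (n = 3). The distal share is higher and the proximal share lower in every S34F library, and the middle share overlaps.

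The distal acceptor is also reached from donors inside the retained UTR. Transcripts that use it this way hold a second UTR intron whose junction lies 94 or 157 nt after the stop by way of the middle acceptor, and 1293 or 1356 nt by way of the proximal one. Both distances are over 50 nt. The direct join supplied 74.3%, 83.2% and 71.7% of the reads into the distal acceptor in S34F and 56.8%, 52.8% and 57.9% in WT, with no overlap. The donor with GT supplied 18.7%, 9.88% and 14.9% against 31.4%, 33.3% and 23.3%, with no overlap, and the donor with GC 7.03%, 6.94% and 13.4% against 11.9%, 13.9% and 18.8%, with overlap. Of all donor choices tested, 14.8% had no overlap in either direction.

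In CPM the direct join did not overlap between the genotypes either, at 15.6, 15.3 and 13.8 in S34F against 5.91, 3.73 and 5.00 in WT. The junctions of the second intron overlapped between genotypes, at 3.92, 1.81 and 2.87 CPM against 3.26, 2.35 and 2.01 for the GT donor and 1.47, 1.27 and 2.57 against 1.23, 0.99 and 1.63 for the GC donor. The 6 overlapping cassette forms of this region are 73 to 661 nt long. Their mean inclusion levels were 5.72 to 15.5% in S34F and 12.3 to 28.7% in WT. All 6 were lower in S34F without overlap, as were 11.8% of all exons tested. These 6 forms rest on the same reads as the donor shares, and 4 of them start at the acceptors with 0 to 17 reads.

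Hnrnpa3 makes its first junction from a pair of donors. The more used supplied 71.6%, 71.9% and 66.0% in S34F and 67.0%, 78.6% and 72.2% in WT, and the genotypes overlapped (edgeR adjusted p = 0.950). The skip of an internal exon took 3.08%, 3.86% and 2.84% against 6.86%, 2.89% and 2.53% of the reads of its donor, on 237 to 422 reads (edgeR adjusted p = 0.953). WT replicate 1 was the highest in this skip. A junction to chr2:75506058 had 20, 0 and 25 reads in S34F and 0 in each WT library, and the 0 in S34F replicate 2 leaves the groups overlapping.

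In Hnrnpa1, a junction from the exon before the 159 nt exon straight to the last acceptor took a minor share of the reads there, at 1.43%, 1.79% and 1.07% in S34F and 1.57%, 1.47% and 1.44% in WT (edgeR adjusted p = 0.982). A junction with both ends 4 bases downstream of those of the junction out of the 159 nt exon had 132 reads in S34F replicate 3, 129 in WT replicate 1 and 0 elsewhere. Compared over 24 bases, this junction and the unshifted junction had 1 mismatch. Whether they are separate splices was not tested. A near-copy was a genome match of at least 90% identity over 80% of the longest coding sequence of a member. By this rule 2 further near-copies of Hnrnpa1, 1 of Hnrnpa2b1 and 30 of Hnrnpa3 were found, and 0 of Hnrnpa0 and Hnrnpab. Counts of Hnrnpa1, Hnrnpa2b1 and Hnrnpa3 could thus lose or gain reads there.

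Among other genes of the pathway, 17 of 21 measured hnRNP genes outside the family had positive log2 fold changes and 4 negative, with a median of 0.15. None passed the test (edgeR and DESeq2 each called 0). At the ends of this list were Hnrnph2, a G-run binding repressor and activator of exons, at 108 ± 25.0 against 55.8 ± 43.7 CPM (log2 fold change 0.96; edgeR adjusted p = 0.569) and Hnrnpl, which binds CA repeats, at 395 ± 3.46 against 525 ± 82.6 CPM (-0.41; edgeR adjusted p = 0.538). Of 7 genes for nuclear import and arginine methylation of hnRNPs 5 were positive (median 0.079), from Carm1, an arginine methyltransferase, at 0.48 to Prmt5, another, at -0.34, and 0 were called. Of 10 measured genes for RRM proteins with low-complexity tails 6 were positive (median 0.017), from Tardbp, which encodes TDP-43, at 0.56 to Tia1, a stress granule protein, at -0.11, and 0 were called.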

How the data were processed

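RNA from sorted common myeloid progenitors, 3 libraries per genotype, was depleted of ribosomal RNA and sequenced as stranded paired reads of 100 bp, per the labels' protocols and design text. Reads were aligned with TopHat 2.0.8 to mm9, per the series' design text. The submitters' processing notes also name Bowtie2 2.1.0, Cufflinks 2.1.1, HTSeq 0.5.4p1 and DESeq2 1.6.1, with no role. No source used here states whether counting used the strand. Raw counts were deposited by the authors per gene and per splice junction, with FPKM per gene. Per the file headers, the authors also deposited fold changes as a ratio and as log2, p-values, and a score and mean count signal from a junction test. Of these, only the p-values of the junction test were used, where the text names that table. The smallest total of a gene was 54 counts and of a junction 12, over 6 libraries.

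Printed junction positions were the last and first exon bases: 0% of 20000 junctions labelled GT-AG held those bases as printed and 99.975% after a shift by 1 base. Gene levels used edgeR 4.0.16 (R 4.3.3; TMM, default filter, quasi-likelihood test, Benjamini-Hochberg, threshold 0.05, two-sided), and CPM are counts over the effective library size. Junction choices were tested as the interaction of genotype and form, with a term for each library, for choices with 20 reads in every library and both forms at 1% of reads (2% for cassette exons of 10 to 1000 nt). Shares of reads had Wilson 95% intervals of at most 4.35 points either way, which cover counting error only. DESeq2 1.42.0, limma 3.58.1 on log2 ratios with 0.5 added to each count, other scalings, filters, read minimums, left-out libraries and a replicate block were alternatives. The edgeR fits were tested on simulated counts. Near-copies were found with BLAST 2.17.0. An exact permutation test cannot go below p = 0.1 with 3 against 3. The members and the gene lists were chosen with earlier results of these data known. Named were the members, their choices whose minor form reached 5% or with an unadjusted p under 0.05, and the ends of each gene list; choices, junctions and near-copies beyond this rule were chosen after their values were seen. The sequence of the skipped Hnrnpa1 exon is not reported here.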

Additional observations from a re-analysis of the deposited data

How the results depend on the processing

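Of 38 results on single members, 36 kept their direction under every alternative run. The exceptions were both Hnrnpa3 first donors, whose log2 ratio of odds ran from -0.408 to 0.0146 and from -0.00846 to 0.404 with single libraries left out, and changed sign without WT replicate 2 only. edgeR made no call of Hnrnpa0, Hnrnpa1, Hnrnpa3 or Hnrnpab with all libraries, so none could be lost. edgeR called 0 genes, and 96 by DESeq2, 5 with the replicate block, 0 to 1172 with single libraries left out (1172 without WT replicate 1) and 599 without replicate 1 of both genotypes. Acceptor choices called went from 0 to 368 by DESeq2 and 59 by limma, and cassette exons from 0 to 107 by DESeq2. Donor choices went from 3 to 233 by DESeq2, 66 by limma, 0 with the replicate block, 0 without replicate 1 of both genotypes, and 0 to 5 with single libraries left out. The cause was not tested. The replicate numbers paired the libraries only in part. Deviations of same-numbered libraries correlated at 0.269, 0.336 and 0.0357. For S34F replicates 1 and 2 the same-numbered WT library correlated best, while S34F replicate 3 correlated best with WT replicate 1 (0.139). With the block, the edgeR adjusted p was 0.257 for Hnrnpa3, 0.299 for Hnrnpab, 0.287 for Hnrnpa1 and 0.524 for Hnrnpa0. Among the members' choices, depth was low for the Hnrnpa3 exon skip (237 reads in a library at the least) and the Hnrnpa2b1 3' UTR cassette forms (337).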
